A study of Homo sapiens with 3 samples.

Results

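Chromosome 18 of SC1 cells is described here through the positions of CREBBP and of histone H3 acetylated at lysine 27 (H3K27ac). SC1 is an established human lymphoma line, labelled DLBCL (diffuse large B-cell lymphoma). The labels name no treatment, while the peak names in both lists carry DMSO, a common solvent, and rep2. No label explains either, and whether the lists stand for 1 of several replicates is not known. The groups used were a chromatin immunoprecipitation with sequencing (ChIP-seq) of CREBBP and a ChIP-seq of H3K27ac, with 1 sample each. An input without antibody completed the 3 samples and was not analysed here. The members were all intervals of chromosome 18 in both lists, except those touching 52.87 to 53.36 Mb, around TCF4, or 60.69 to 61.09 Mb, around BCL2. This left 6060 of 6169 CREBBP peaks and 332 of 363 H3K27ac regions of the chromosome, out of 212584 CREBBP peaks and 17727 H3K27ac regions on the 22 autosomes. Membership used position alone, but the chromosome was singled out with peak densities known, so its densities are given as a description with no test.

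CREBBP is a lysine acetyltransferase that acts as a coactivator of transcription, and H3K27 is among the residues that it acetylates. H3K27ac marks active promoters and enhancers, so regions rich in active genes carry more of it. CREBBP is often mutated in DLBCL and follicular lymphoma. Chromosome 18 is known as a gene-poor chromosome. It carries BCL2, which blocks apoptosis and is joined to the immunoglobulin heavy-chain locus by a recurrent lymphoma translocation, and TCF4, a helix-loop-helix factor of B-cell development. Gains of its long arm, 18q, are recurrent in DLBCL. The copy number of chromosome 18 in SC1 was not measured in these files.

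All positions are on hg19 and counted from 1. Fold is the enrichment over expected background that the authors' peak caller gave. For the CREBBP list, the number of fragments at the summit of a peak and the background expected there were solved from the deposited fold and p-value of that peak. These are inferences from the deposited values. The commonest background was 1.30 fragments, held by 55.1% of autosomal CREBBP peaks, and appears to be the lowest value that the background took. No depth is stated in the lists. Each group held 1 library, so no value has a replicate error, and the exact Clopper-Pearson 95% intervals below cover counting error only, with each peak taken as independent of the others.

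Chromosome 18 held more CREBBP peaks per Mb than most autosomes and fewer H3K27ac regions. Its CREBBP density was 78.6 peaks per Mb, the fifth of the 22 autosomes, against a median of 70.3 in the other 21, whose range ran from 47.4 on chromosome 22 to 107.6 on chromosome 7. Its H3K27ac density was 4.31 regions per Mb, rank 19 of 22, against a median of 5.66 and a range of 3.26 on chromosome 13 to 18.9 on chromosome 19. These lengths count CREBBP-free stretches, which lowers the densities of chromosomes such as 13 and 22, whose first part held no usable window. With CREBBP-free stretches of 1 Mb or more left out, chromosome 18 had 81.9 CREBBP peaks per Mb, rank 5, against a median of 73.9. Its H3K27ac density was then 4.49 per Mb, rank 19, against 6.12. There were 18.3 CREBBP peaks for each H3K27ac region on chromosome 18, against 11.9 on the other autosomes pooled. Chromosomes 8, 4, 13 and 7 had higher ratios, at 21.5, 20.1, 18.8 and 18.4. Chromosome 13 reached its ratio with 61.1 CREBBP peaks per Mb and chromosome 7 with 107.6.

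**Figure D1:**
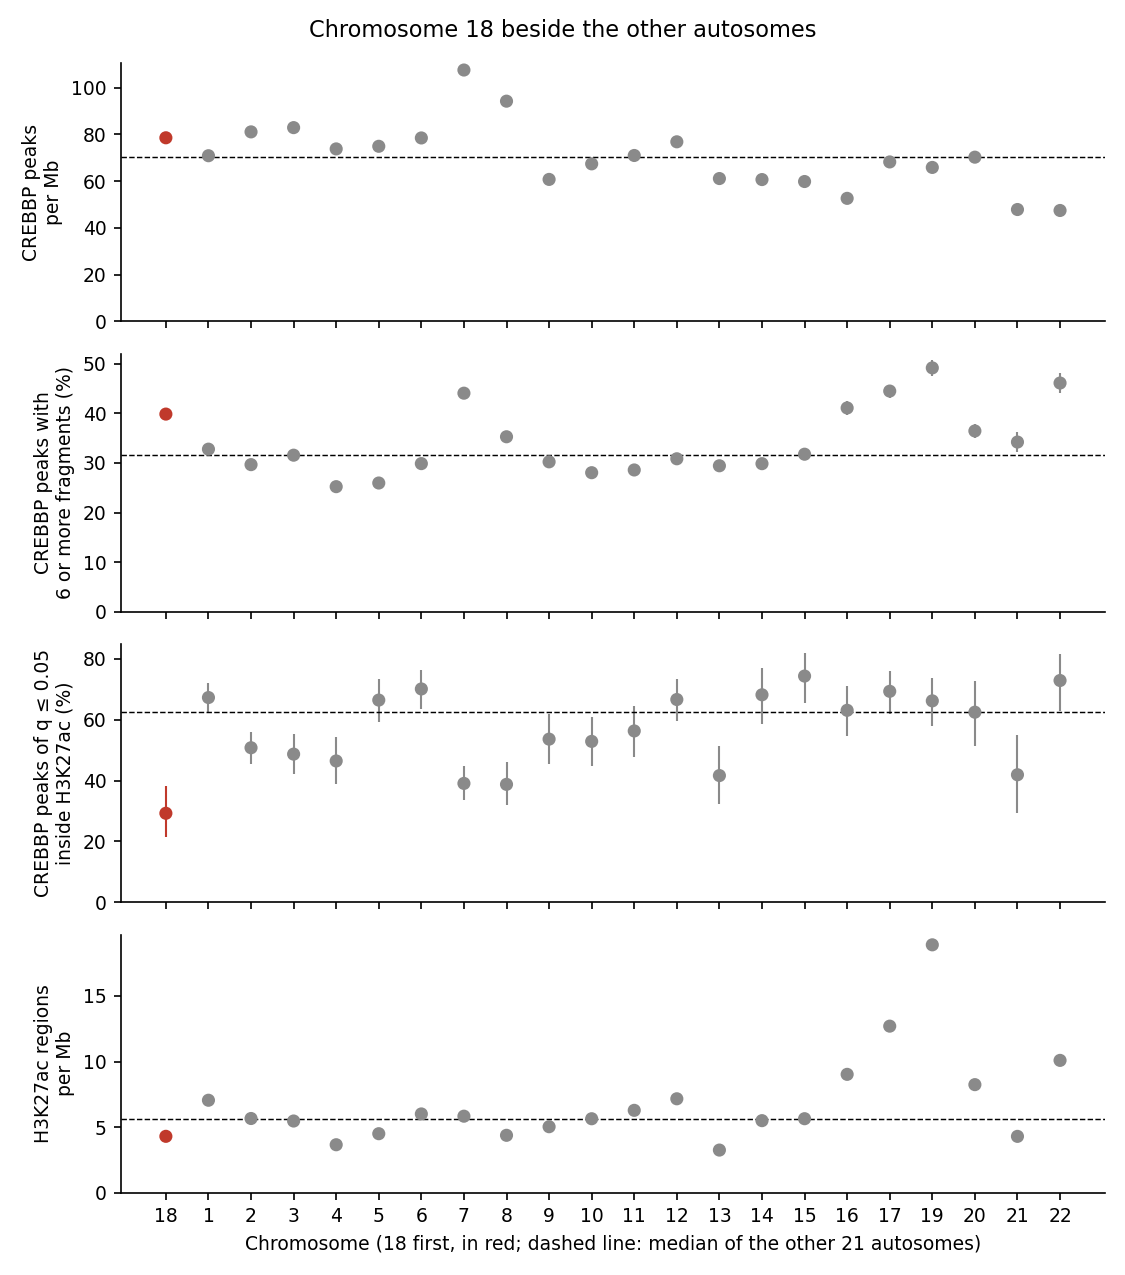
Each point is an autosome, with chromosome 18 first and in red, and the dashed line is the median of the other 21. From the top, the axes give CREBBP peaks per Mb, the percentage of CREBBP peaks with 6 or more fragments, the percentage of CREBBP peaks of q at most 0.05 that lay inside H3K27ac regions, and H3K27ac regions per Mb, with exact 95% intervals as bars on both percentages. Chromosome 18 lies above the median in the first and second panels and below it in the others. Its 29.3% in the third panel is the lowest of the 22, with the TCF4 and BCL2 intervals left out on chromosome 18 alone.

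The usual measures of peak size did not set the chromosome apart. Median width was 362.5 bp (interquartile range 292 to 488 bp) on chromosome 18 and 362 bp (293 to 481 bp) on the other autosomes, whose own medians ran from 356 to 374 bp. The median fold was 2.17 on chromosome 18 and on every other autosome, since most peaks share a few low fold values. The upper part of the distribution showed more spread. A fold over 3 was held by 744 chromosome 18 peaks, 12.3% (11.5 to 13.1%), against 11.4% of all autosomal peaks. That share was second to chromosome 7, at 14.3%, and was lowest on chromosome 22, at 9.21%.

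Fragment numbers differed more than fold did. On chromosome 18, 39.9% of CREBBP peaks (38.6 to 41.1%) had 6 or more fragments at the summit, against 32.8% over all autosomes. For 10 or more fragments the share was 9.49% on chromosome 18 and 6.30% on the other autosomes pooled. Both shares lay below those of the other autosomes pooled, at 30.9% and 4.61%, when the stretch from 60 to 65.5 Mb described below was left out. The commonest background held 49.6% of chromosome 18 peaks (48.3 to 50.8%). Only the 6 chromosomes 7, 16, 17, 19, 20 and 22 had a lower share among the other 21. Apart from chromosome 7, these lay above chromosome 18 in H3K27ac density by a wide margin, with 8.24 regions per Mb or more, and chromosome 7 had 5.84.

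The stronger CREBBP peaks of chromosome 18 mostly lay outside H3K27ac regions. There were 123 peaks with a q of at most 0.05, 2.03% (1.69 to 2.42%), against 1.81% over all autosomes. Of these 123, 36 overlapped an H3K27ac region by at least 1 bp, 29.3% (21.4 to 38.1%), where the share over all autosomes was 56.4%. This was the lowest share of the 22 autosomes, below chromosomes 8, 7, 13 and 21, at 38.8%, 39.1%, 41.7% and 41.9%. Without the stretch from 60 to 65.5 Mb it was 49.3%, rank 16, and a q of at most 0.05 was then held by 1.32% of peaks. For all CREBBP peaks the share inside was 3.86% (3.39 to 4.38%) on chromosome 18, against 4.98% over all autosomes.

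Windows of 2 Mb, counted from the first base, showed where along the chromosome these peaks were. The longest CREBBP-free stretch ran from 15409513 to 18511038, 3.10 Mb that also held no H3K27ac region, and it was used to part the arms. Of 40 windows, 38 had at least 1 Mb left outside it and outside the left-out intervals. CREBBP density in these windows had a median of 83.0 peaks per Mb (interquartile range 57.5 to 95.3, range 24.5 to 187.5), against 78.0 (63.0 to 94.0) in 1313 windows of the other autosomes. The coefficient of variation was 42.8% across chromosome 18 windows and 33.1% across the others. H3K27ac regions numbered from 0 to 27 in a chromosome 18 window, with a median of 6.5, against a median of 10.0 elsewhere.

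The densest windows in CREBBP, from 62 to 64 Mb and from 64 to 66 Mb of 18q, lay next to each other and were poor in H3K27ac. The window from 62 to 64 Mb held 375 CREBBP peaks, 187.5 per Mb, and 5 H3K27ac regions. The window from 64 to 66 Mb held 329 CREBBP peaks, 164.5 per Mb, and no H3K27ac region. Among all 1351 autosomal windows these ranked 3 and 6 by CREBBP density. The window from 58 to 60 Mb was the third of the chromosome, with 290 CREBBP peaks and 6 H3K27ac regions.

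The sparsest windows were also poor in H3K27ac. From 36 to 38 Mb there were 49 CREBBP peaks and no H3K27ac region, and from 38 to 40 Mb 71 CREBBP peaks and 1 region. From 26 to 28 Mb there were 65 CREBBP peaks and no region. In these 3 windows the commonest background held 85.9 to 91.8% of the CREBBP peaks, and the median peak had 4 fragments. In the windows of 62 to 64 and 64 to 66 Mb it held 0.800% and 6.69%, and the median peak had 9 and 8 fragments. Windows without acetylation therefore stood at both ends of the CREBBP range.

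**Figure D2:**
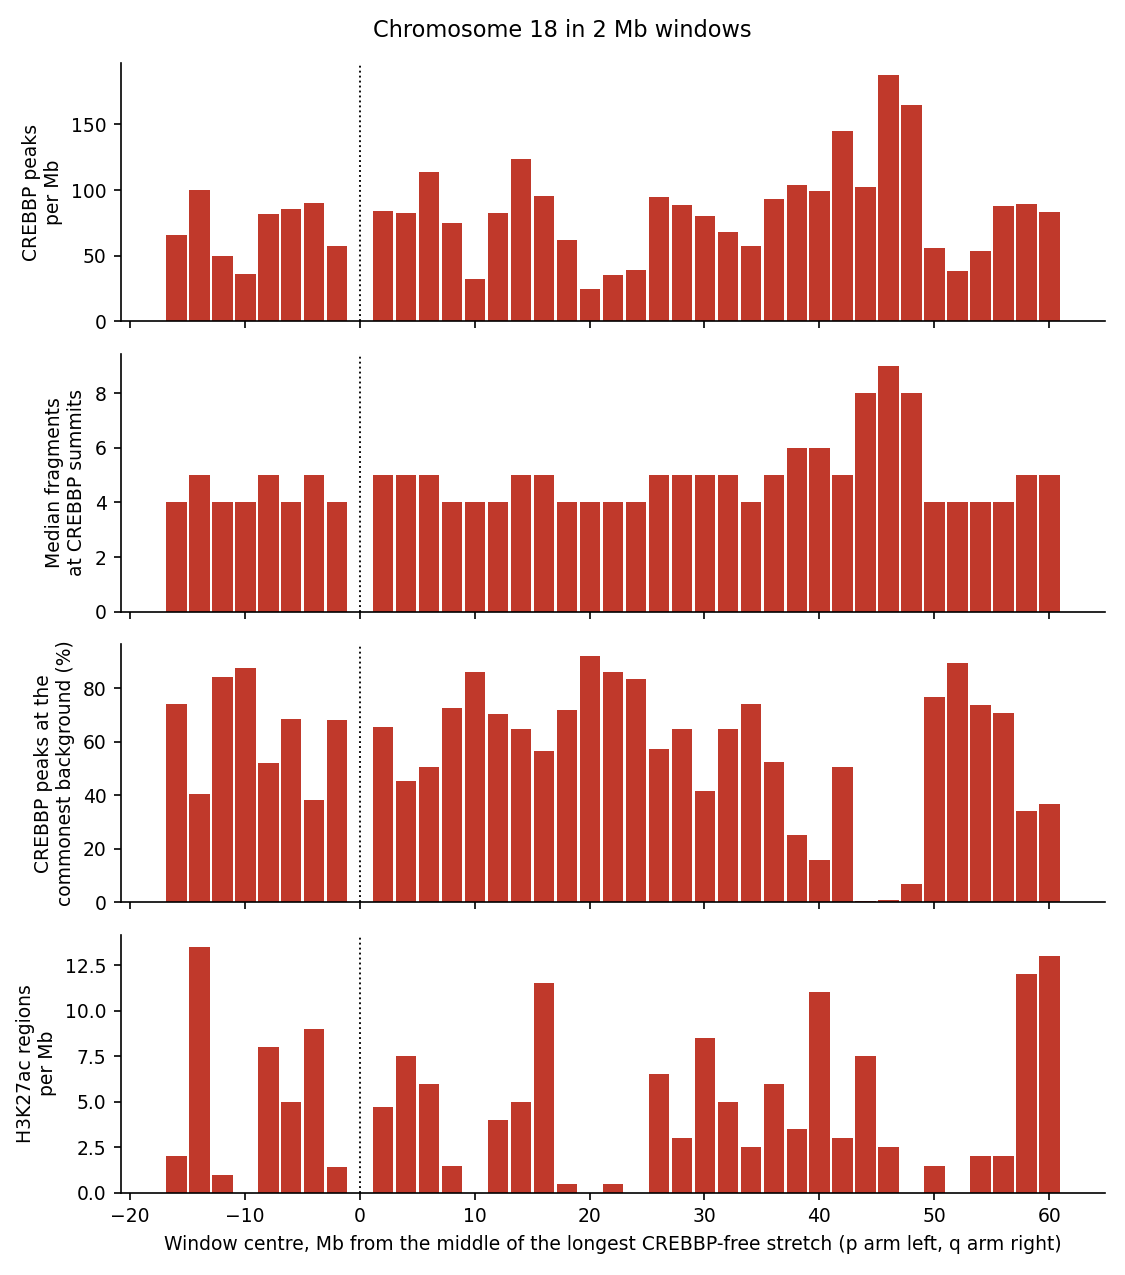
Each bar is a 2 Mb window of chromosome 18, placed by its distance in Mb from the middle of the longest CREBBP-free stretch, with the p arm on the left and the q arm on the right. From the top, the axes give CREBBP peaks per Mb, the median number of fragments at CREBBP summits, the percentage of CREBBP peaks at the commonest background, and H3K27ac regions per Mb. On the right side, the window with 187.5 CREBBP peaks per Mb has a median of 9 fragments, 0.800% at the commonest background and 2.5 H3K27ac regions per Mb.

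With the left-out intervals not counted, the windows richest in H3K27ac lay near both chromosome ends. The TCF4 and BCL2 intervals held 16 and 15 further regions. These fall in the windows from 52 to 54 Mb and from 60 to 62 Mb, which held 9 and 12 without them, so the order depends on the exclusion. The window from 2 to 4 Mb held 27 H3K27ac regions covering 77.2 kb, of which 20 held a CREBBP peak, and 200 CREBBP peaks. The windows from 76 to 78 Mb and from 74 to 76 Mb held 26 and 24 regions, covering 59.8 and 54.2 kb, with 167 and 179 CREBBP peaks. In these 3 windows the commonest background held 34.1 to 40.5% of CREBBP peaks and the median peak had 5 fragments. Across the 38 windows, CREBBP and H3K27ac density had a Spearman rho of 0.59 and a Pearson r of 0.33. Both densities come from 1 library each, and windows share gene content and mappable sequence, so this is a description. On the other autosomes the rho ran from -0.72 to 0.78, with a median of 0.47. Without the 3 windows between 60 and 66 Mb the rho on chromosome 18 was 0.75 over 35 windows. These 3 were picked after the values were seen, while the other autosomes kept all their windows. The rise thus follows in part from the choice.

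The p arm was sparser in CREBBP than the q arm, while their H3K27ac densities did not differ beyond counting error. It held 1100 CREBBP peaks in 15.4 Mb, 71.4 per Mb, and the q arm held 4960 in 58.6 Mb, 84.6 per Mb, a ratio of 0.843. For peaks of q at most 0.05 the densities were 0.714 per Mb on the p arm and 1.91 on the q arm. H3K27ac regions numbered 79 on the p arm, 5.13 per Mb, and 253 on the q arm, 4.32 per Mb, and the exact interval of this ratio, 0.911 to 1.53, includes 1. CREBBP peaks of 6 or more fragments made up 28.5% on the p arm (25.8 to 31.2%) and 42.4% on the q arm (41.0 to 43.8%).

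The excess of the q arm lay to a large part in a single stretch. In windows of 0.5 Mb, the longest run with at most 15% of CREBBP peaks at the commonest background was from 60.0 to 65.5 Mb, called the high-background stretch below. This stretch and its threshold were chosen after the values were seen, so it is described with no test. Leaving out the BCL2 interval it spans 5.10 Mb, 6.61% of the length used, and it held 849 CREBBP peaks, 14.01% of the chromosome's members. It held 335 of the 575 peaks with 10 or more fragments, 58.3%, and 54 of the 123 peaks of q at most 0.05, 43.9%. It held 17 of the 332 H3K27ac regions, 5.12%, which do not count the 15 of the left-out BCL2 interval.

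Both the fragments and the background were raised there. The median CREBBP peak of the stretch had 9 fragments, with quartiles of 7 and 10, over a background of 2.84 (2.31 to 3.70), against 5 fragments (4 to 6) over 1.30 (1.30 to 1.85) on the rest of the chromosome. The low share at the commonest background, which chose the stretch, was 11 of its 849 peaks, 1.30%, against 57.4% on the rest of the chromosome, and nothing is read from this contrast. Peaks above the commonest background also need more fragments to pass a limit on p, so the fragment numbers are not independent of that choice. CREBBP peaks numbered 166.5 per Mb in the stretch and 75.6 per Mb on the rest, whose 68.9 Mb leave out the CREBBP-free stretch between the arms. Peaks of q at most 0.05 numbered 10.6 per Mb in the stretch and 1.00 on the rest. The median fold moved less, at 2.34 (1.96 to 2.80) in the stretch and 2.17 (2.05 to 2.60) on the rest, and the median width was 394 and 359 bp. The chance that a peak of a given fold passes a limit on p rises with its number of fragments, and the part of this in the density was not tested.

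H3K27ac regions in the stretch did not stand out in the same way. They numbered 3.33 per Mb in the stretch and 4.57 per Mb on the rest of the chromosome. The left-out BCL2 interval, 400 kb within the stretch, held 15 further regions, so the lower density depends on that exclusion. Their median fold was 5.64 (2.89 to 8.36) in the stretch and 5.09 (3.23 to 8.82) on the rest, and their median width was 1656 and 1539 bp. A CREBBP peak lay in 9 of the 17 regions of the stretch and in 170 of the 315 on the rest, 52.9% (27.8 to 77.0%) and 54.0% (48.3 to 59.6%). Fragments and backgrounds could not be solved for the H3K27ac list, whose values appear to be averages over whole regions.

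The upper edge of the stretch was steep. In steps of 0.1 Mb, CREBBP peaks numbered 16, 17 and 15 between 65 and 65.3 Mb, with medians of 7, 9 and 9 fragments. The next steps, from 65.3 to 65.5 Mb, held 2 and 3 peaks, all at the commonest background, with a median of 4 fragments. The last peak with 8 or more fragments before 65.5 Mb ran from 65251121 to 65251519, with 9 fragments over a background of 2.08. The first at the commonest background after 65 Mb began at 65298163, with 4 fragments. Between that last peak of 8 or more fragments and 70 Mb there were 213 peaks, and 4 of them, 1.88%, had 8 or more fragments, where 612 of the 849 peaks of the stretch did, 72.1%.

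The lower edge showed in both background and peak number. From 59.5 to 59.6 Mb there were 8 peaks, none at the commonest background, over a median background of 1.85, and from 59.6 to 59.7 Mb 2 of 15 stood at it. From 59.7 to 60.0 Mb the 0.1 Mb steps held 21, 24 and 16 peaks, of which 33.3 to 38.1% stood at the commonest background, with medians of 5 to 6 fragments. From 60.0 to 60.5 Mb each step held 7 to 9 peaks, none of them at the commonest background, with medians of 6 to 8 fragments and median backgrounds of 2.49 to 3.35. Peak number then climbed within the stretch, to 136 peaks in the window from 64.0 to 64.5 Mb, which held no H3K27ac region. At the left-out intervals the neighbouring values were low on both sides of TCF4, where the last member before it and the first after it both had 4 fragments over 1.60. At BCL2 the last member before had 6 fragments over 2.57 and the first after had 11 over 3.32, and the outermost left-out peaks there had 10 over 4.81 and 10 over 4.62.

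Before the stretch lay a milder rise. From 53.5 to 58.0 Mb there were 471 CREBBP peaks, 104.7 per Mb, with a median of 6 fragments over a background of 1.85, and the commonest background held 22.5% (18.8 to 26.5%). This part was rich in H3K27ac, with 37 regions, 8.22 per Mb. From 58.0 to 60.0 Mb the CREBBP density was 145.0 per Mb, but the median was 5 fragments over 1.31, and 50.7% (44.8 to 56.6%) stood at the commonest background. On the far sides, the values were 56.4 peaks per Mb and 73.0% from 50 to 52.5 Mb, and 46.0 peaks per Mb and 81.6% from 65.5 to 70 Mb. CREBBP density was thus low on both outer sides. Towards the stretch the change was partly gradual, since the share at the commonest background fell from 71.2 to 28.6% over the 0.5 Mb windows from 58.0 to 60.0 Mb.

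**Figure D3:**
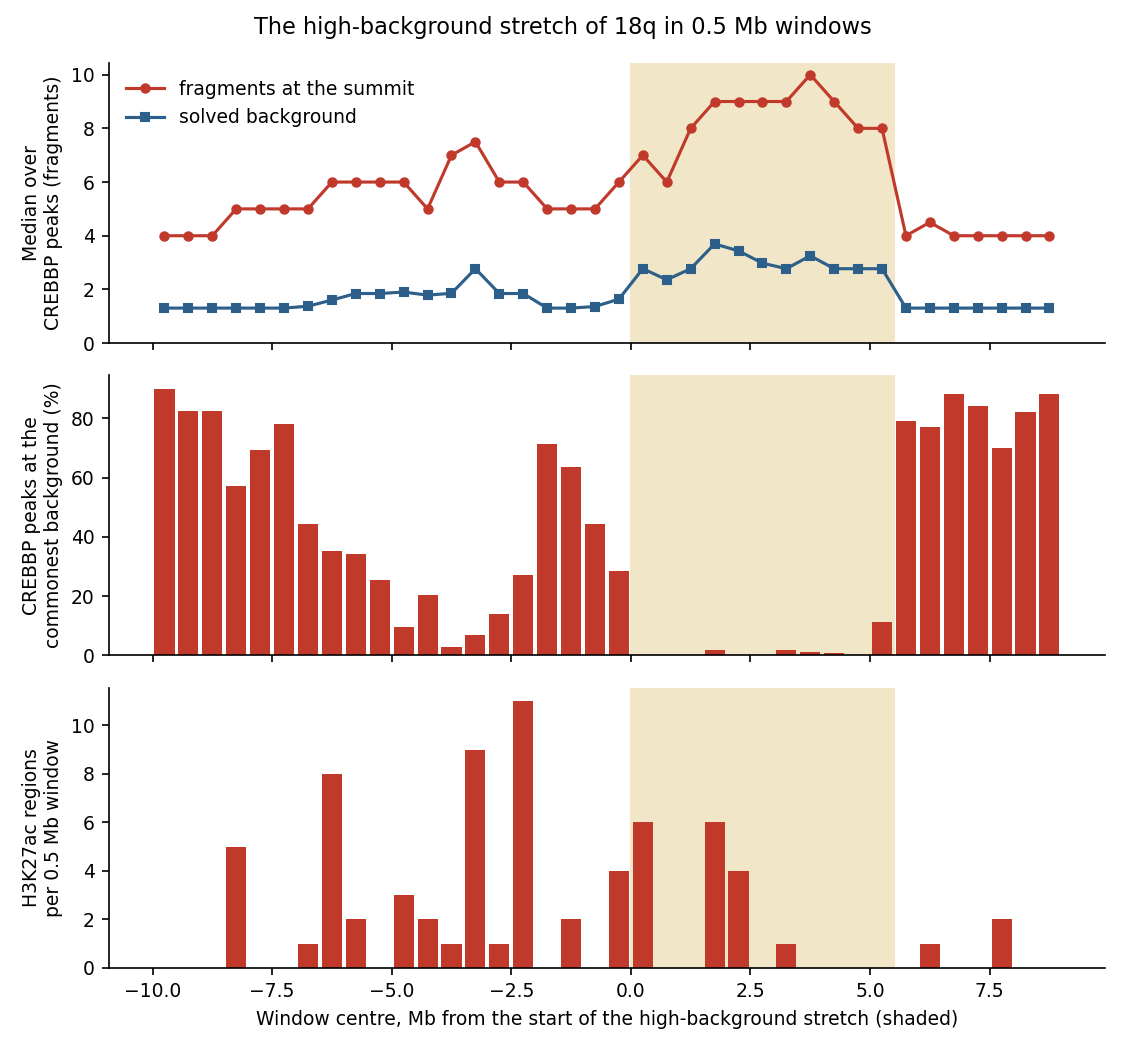
Each point or bar is a 0.5 Mb window of 18q, placed by its distance in Mb from the start of the high-background stretch, which is shaded. The top panel gives the median number of fragments at CREBBP summits in red and the median solved background in blue, the middle panel the percentage of CREBBP peaks at the commonest background, and the bottom panel the number of H3K27ac regions. In most shaded windows the median fragments stand higher than in any window outside. The unshaded window from 56.5 to 57 Mb reaches 7.5 fragments over 2.77, while the shaded window from 60.5 to 61 Mb has 6 over 2.36. Fragments and background drop together at the right edge, where the share at the commonest background climbs to 78.9%. The last 5 shaded windows include 4 with no H3K27ac region.

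On the other autosomes, most windows with so few peaks at the commonest background were rich in H3K27ac. Of 1330 windows of 2 Mb with 50 or more CREBBP peaks, 33 had at most 10% of them at the commonest background, 2.48%. Chromosome 18 supplied 3 of its 37 such windows, those from 60 to 66 Mb, with 12, 5 and 0 H3K27ac regions. The first of these has 1.6 Mb left, and its 12 regions do not count the 15 of the left-out BCL2 interval. Its low number therefore depends on that exclusion, while the windows of the other autosomes had no interval left out. The other 30 windows, of 1293 on the other autosomes, held 11 to 81 H3K27ac regions, with a median of 47.5, and none held fewer than 10. The nearest to chromosome 18 was the window from 126 to 128 Mb of chromosome 8, with 227 CREBBP peaks, 3.96% at the commonest background and 11 regions. That number is near the median of 10.0 over all windows of the other autosomes. Among the windows with fewer than 10 regions, the lowest share at the commonest background was 0.800% on chromosome 18 and 15.4% on the other autosomes. On chromosome 13, the windows from 90 to 92 Mb and from 92 to 94 Mb, with 296 and 383 CREBBP peaks and with 0 and 1 regions, had shares of 19.6% and 24.8%. The windows were picked by this share, so the contrast is a description.

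**Figure D4:**
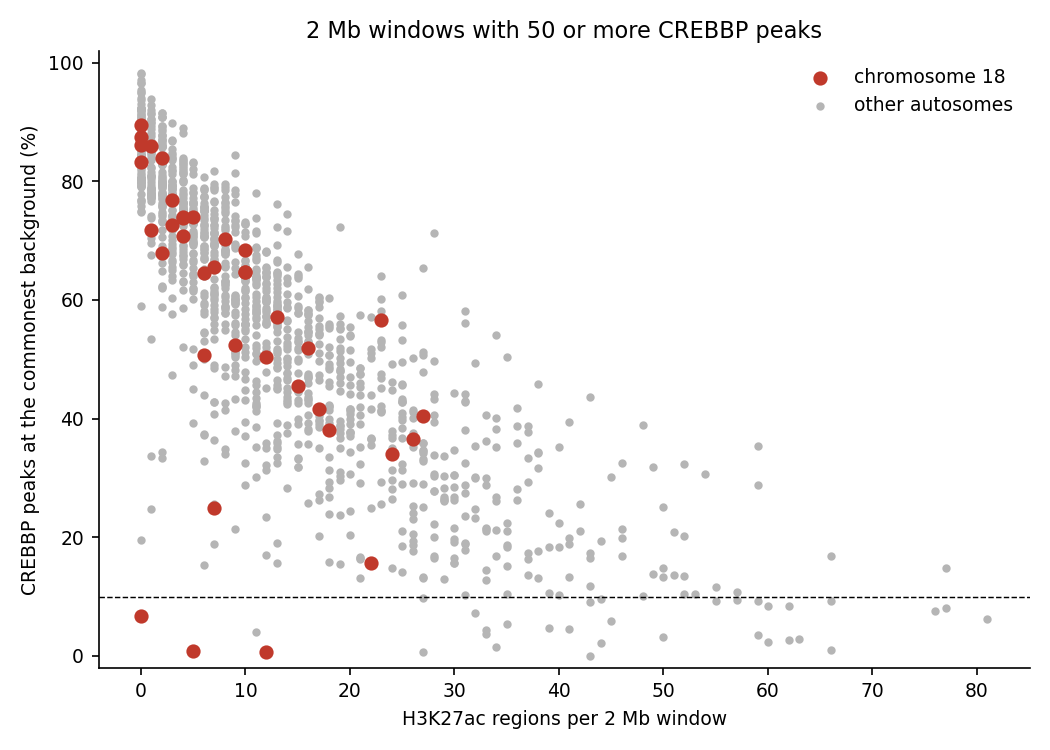
Each point is a 2 Mb autosomal window with 50 or more CREBBP peaks, in red on chromosome 18 and in grey on the other autosomes. The horizontal axis gives the number of H3K27ac regions in the window, the vertical axis the percentage of its CREBBP peaks at the commonest background, and the dashed line marks 10%. The 3 red points under the line have 0 to 12 regions, while the 30 grey points under it have 11 to 81. The red point at 12 does not count the 15 regions of the left-out BCL2 interval.

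CREBBP peaks of the stretch lay outside H3K27ac regions at fragment numbers where peaks elsewhere often lay inside. The stretch was chosen by its background, and peaks over a higher background need more fragments to pass a limit on p. Like fragment numbers thus do not mean like peaks, and the contrast is a description. Of the 307 peaks of the stretch with 10 to 14 fragments, 2 lay inside, 0.651% (0.0790 to 2.33%). The share was 42.9% (33.5 to 52.6%) on the rest of the chromosome and 39.9% (38.6 to 41.1%) on the other autosomes. With 7 to 9 fragments it was 0.513% (0.0622 to 1.84%) in the stretch, 7.92% (5.90 to 10.4%) on the rest of the chromosome and 5.21% (4.94 to 5.50%) on the other autosomes. With 15 to 19 fragments 3 of 20 peaks of the stretch lay inside, and 48 of 53 on the rest of the chromosome. At 20 to 29 fragments the stretch had 4 of 6 inside, too few to set against the 86.8% on the rest of the chromosome. Of the peaks of q at most 0.05, 2 of 54 lay inside in the stretch, 3.70% (0.452 to 12.7%), against 34 of 69 on the rest, 49.3% (37.0 to 61.6%). The left-out BCL2 interval, with 30 CREBBP peaks and 15 H3K27ac regions, lies within the stretch and is not counted in these shares.

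**Figure D5:**
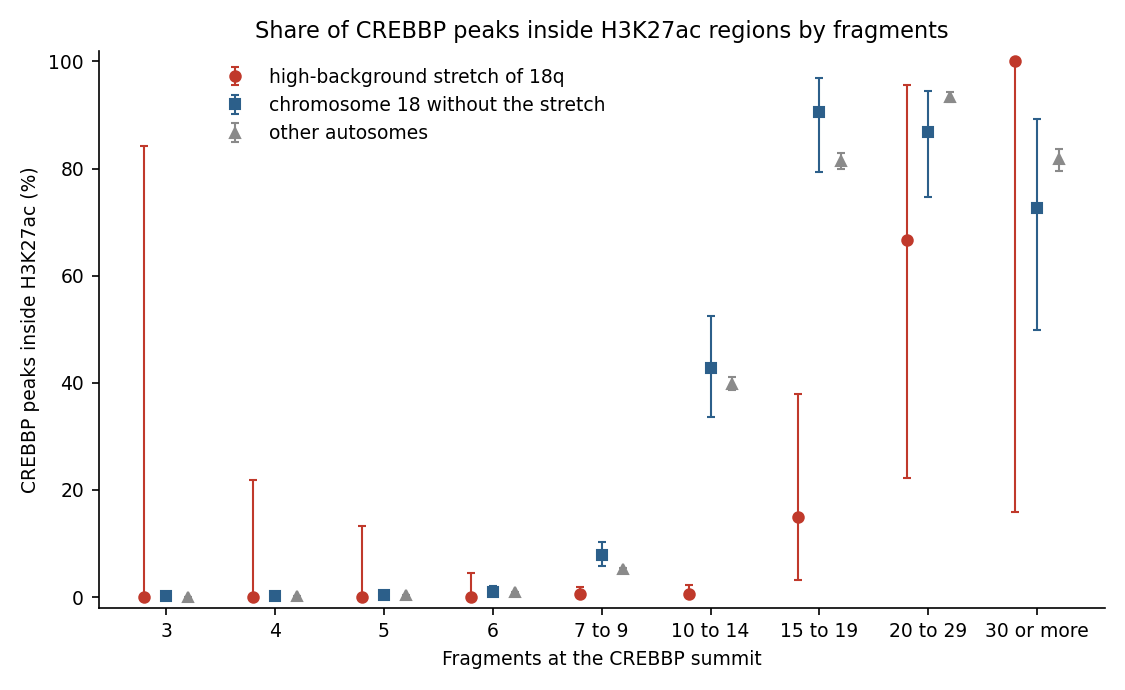
Points give the percentage of CREBBP peaks inside H3K27ac regions by the number of fragments at the summit, for the high-background stretch in red, the rest of chromosome 18 in blue and the other autosomes in grey, with exact 95% intervals as bars. At 10 to 14 fragments the stretch stands at 0.651%, against 42.9% on the rest of the chromosome and 39.9% on the other autosomes, and above 20 fragments the stretch holds too few peaks to place. The stretch was chosen by its background, with which fragment numbers rise, and peaks of the left-out BCL2 interval are not counted.

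The stretch also differed in its distance from acetylated chromatin. Of the peaks of the stretch, 487 (57.4%) had no H3K27ac region within 250 kb, against 1536 (29.5%) on the rest of the chromosome and 27.1% on the other autosomes. These 487 included 37 of q at most 0.05, where the 1536 included 3. Their median was 9 fragments over 2.77 in the stretch and 4 over 1.30 on the rest of the chromosome. Distance was not even along the stretch. Its last part, from 62 to 65.5 Mb, held 685 CREBBP peaks and 5 H3K27ac regions, with a median distance of 600 kb, against 359 kb over the whole stretch. The interval from 63259714 to 66381556, which runs past the upper edge, held no H3K27ac region and 496 CREBBP peaks. Neighbouring CREBBP peaks stood a median of 2.83 kb apart in the stretch (interquartile range 1.16 to 7.04 kb) and 7.48 kb (2.97 to 16.5 kb) on the rest.

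Peaks of like solved background were set side by side, since the fold divides by it. At backgrounds above the commonest and under 2 fragments, the median fold was 2.91 in the stretch, with 118 peaks, 2.19 on the rest of the chromosome and 2.17 on the other autosomes. At 2 to 3 fragments it was 2.59 in the stretch, with 335 peaks, 2.13 on the rest of the chromosome and 2.13 on the other autosomes. At 3 to 5 fragments it was 2.13 in the stretch, 2.05 on the rest of the chromosome and 2.09 on the other autosomes. At 5 to 10 fragments the order turned, with 1.79 in the stretch, 1.99 on the rest of the chromosome and 2.10 on the other autosomes. In this class 4.88% of the 82 peaks of the stretch lay inside H3K27ac regions. On the rest of the chromosome 81.7% of 93 did, and on the other autosomes 76.2%, so the sets differ in make-up. Among peaks outside, the medians were 1.77 in the stretch, 1.99 on the rest of the chromosome and 1.91 on the other autosomes. The background at a peak is itself estimated from few fragments, so like estimates need not mean like true backgrounds.

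In the order of genes along the chromosome, KDSR, an enzyme of sphingolipid synthesis, and VPS4B, an ATPase of the membrane-remodelling ESCRT machinery, follow BCL2. Next come SERPINB genes, protease inhibitors from SERPINB5 to SERPINB8, and then CDH7 and CDH19, which encode cadherins of cell adhesion, and DSEL. This order is from RefSeq on GRCh38.p14, another build than that of the lists, so no gene was placed at a peak or window.

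The strongest CREBBP peaks by fold were spread over the q arm, and all 5 lay outside H3K27ac regions. The largest fold, 6.76, was at 64771482 to 64772488 within the stretch, with 18 fragments over 1.81, and it stood 1512 kb from the nearest H3K27ac region. The next, with a fold of 5.64 and 12 fragments over 1.30, was at 42792708 to 42793202. Peaks at 19535727 to 19536625 and at 59891239 to 59891816 shared a fold of 5.21, with 11 fragments over 1.30. The fifth, at 63154486 to 63155088 in the stretch, had a fold of 5.14 and 23 fragments over 3.67. The largest fold on the other autosomes was 15.5.

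The most significant CREBBP peaks by the authors' p-value were others, and none lay inside an H3K27ac region. Of the 5, 4 lay within 10 kb of the upper end of the CREBBP-free stretch, from 18511039 to 18520322. Their folds were low, from 1.96 to 2.80, and their solved backgrounds were high. The strongest, at 18518397 to 18520322, had a −log10 p of 212.2, with 2622 fragments over a background of 1334. The peak at 18516872 to 18517795, with a −log10 p of 92.7, could not be solved within the tolerance. Those at 18512815 to 18513175 and 18511039 to 18512388 had 361 fragments over 128.4 and 183 over 88.7. The fifth, at the start of the chromosome from 10038 to 10837, had 39 fragments over 8.31 and a fold of 4.29. On the other side of the CREBBP-free stretch, the last 10 kb held 5 peaks with 3 to 8 fragments.

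H3K27ac regions of chromosome 18 were few but somewhat wide. Their median width was 1554.5 bp (interquartile range 894 to 2300 bp), the highest of the 22 autosomes, against 1421 bp (919 to 2147 bp) on the others pooled, whose own medians reached 1500.5 bp. Regions over 5 kb numbered 22, 6.63% (4.20 to 9.86%), against 4.91% over all autosomes. The interval includes that share. H3K27ac covered 0.865% of the length used, against a median of 1.06% on the other autosomes. Median H3K27ac fold was 5.11 (3.23 to 8.80) on chromosome 18 and 4.88 (3.10 to 7.86) on the others pooled.

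A CREBBP peak lay in 179 of the 332 regions, 53.9% (48.4 to 59.4%), against 49.0% over all autosomes, and this share was the highest of the 22, just above chromosome 13, at 53.3%. The interval includes the share over all autosomes. A CREBBP peak of q at most 0.05 lay in 35 regions, 10.5% (7.45 to 14.4%), against 11.6%. Regions with a CREBBP peak had a median width of 1943 bp and those without 1039 bp, where the other autosomes had 1770 and 1160 bp. By width class, the share with a CREBBP peak was 27.3% among chromosome 18 regions up to 919 bp and 74.7% among those over 2147 bp, against 28.3% and 74.0% on the other autosomes. In the classes between, it was 47.0% (34.6 to 59.7%) on chromosome 18 and 39.9% on the other autosomes for regions up to 1421 bp, and 63.3% (51.7 to 73.9%) on chromosome 18 and 53.3% on the other autosomes for regions up to 2147 bp. Longer regions overlap more peaks through length alone.

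The 5 widest members each carried 1 to 5 CREBBP peaks, and the 5 regions of highest H3K27ac fold carried 0 or 1. The widest, 10.6 kb from 22501018 to 22511603 with an H3K27ac fold of 8.36, held 2 CREBBP peaks, of which 1 had a q of at most 0.05. The second, 10.5 kb from 74202854 to 74213333, had a fold of 4.03 and 3 peaks. The third, from 56629706 to 56640053, had a fold of 6.48 and 5 peaks, and the fourth, from 57621032 to 57629728, a fold of 8.86 and 5 peaks. The fifth, from 3710721 to 3718872, held 1 peak with 9 fragments. By fold, the first was at 22930590 to 22933249, where H3K27ac fold was 22.8 and 1 CREBBP peak had 29 fragments. The second, at 75345028 to 75345622, had a fold of 22.2 and no CREBBP peak. The fourth, at 13725655 to 13727354, and the last, at 77565198 to 77566350, had folds of 20.03 and 18.7 and also no CREBBP peak. The third, at 43249871 to 43250767, had a fold of 21.8 and 1 peak of 10 fragments.

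Without the high-background stretch, chromosome 18 moved down the order of autosomes in CREBBP density and in fragment numbers, but less so in fold. The stretch was chosen by its background and taken from chromosome 18 alone, while the other autosomes kept all their peaks. A lower rank in fragment numbers and in peaks of q at most 0.05 thus follows in part from the choice. Over the remaining 72.0 Mb, which count the CREBBP-free stretch between the arms, its CREBBP density was 72.4 per Mb, rank 9 of 22, and its share of peaks with 10 or more fragments 4.61%, rank 20. The density of CREBBP peaks of q at most 0.05 was 0.958 per Mb, rank 20, and 49.3% of them lay inside H3K27ac regions, rank 16. A fold over 3 was still held by 11.6% of peaks, rank 4, and 68.2% of peaks were more than 50 kb from an H3K27ac region, also rank 4. The H3K27ac density of 4.37 per Mb kept rank 19, and the median region width of 1539 bp and the share of regions with a CREBBP peak, 54.0%, kept rank 1. The p arm over q arm ratio of CREBBP density was 0.929 without it.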

How the data were processed

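ChIP-seq was done in SC1 cells with antibodies to CREBBP and H3K27ac and with no antibody, 1 sample each. The tools fastp, Bowtie2, STAR and MACS2 and the build hg19 are named per the submitters' processing notes. What each tool did, its settings and the control library were not given in the sources used here. The authors deposited a narrow CREBBP list and a broad H3K27ac list, each with a fold (a ratio), −log10 p, −log10 q and a score. They are the authors' own values and were used to describe, rank and filter within a list. A q of at most 0.05 was the limit for stronger peaks.

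Fragments n and background b were solved from fold = (n + 1)/(b + 1) and the upper Poisson tail p, accepted within 0.001 of −log10 p, for 212555 of 212584 autosomal peaks. The commonest background was 1.30, within 0.005. Length was the last position that either list covers, less the left-out intervals. Peaks were placed in windows by their midpoint, and overlap was at least 1 bp. Sites named were the 5 with the largest fold, −log10 p or width and the 3 windows with the highest or lowest density. Alternatives were stricter peak sets, other overlaps and window sizes, and the left-out intervals put back. Members and settings were chosen with earlier results of these data known. Values were computed in Python 3.11.15 with scipy 1.17.1, numpy 2.4.6 and pandas 2.3.3 and drawn with matplotlib 3.10.9, and the solution and overlap code were tested on simulated data. The reference at hand had no hg19 genome, so no sequence or gene was assigned to a peak.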

Additional observations from a re-analysis of the deposited data

How the results depend on the processing

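Of 46 alternatives over 9 results, 33 left the value within the 95% interval of the reported one and 13 moved it. These intervals differ in width, so the counts depend on them. That of the median fold ratio was 1 to 1, where any change counted as moved, and that of the window rho was 0.33 to 0.77. Restricted to CREBBP peaks of q at most 0.05, the density of chromosome 18 was 1.24 times the median of the other autosomes, against 1.12 with all peaks, the width ratio was 1.03, the fold ratio 1.10, the share inside H3K27ac 29.3%, the share of H3K27ac regions with a peak 10.5% and the p over q arm ratio 0.374. The share of regions with a peak was then below that of the other autosomes, 11.6%, where with all peaks it was above, 53.9% against 48.9%. With the upper 50% of CREBBP peaks by −log10 p, the density ratio was 1.16, the fold ratio 1.01, the share inside 4.44% and the share of regions with a peak 44.9%. With the upper 50% of H3K27ac regions the share inside was 2.19%. Without the high-background stretch, an alternative added after the data were seen, the density ratio was 1.03 and the arm ratio 0.929, and median CREBBP width was 359 bp against 362 bp on the other autosomes, below it where the reported value was above. Fewer CREBBP peaks lower the share of regions with a peak by construction, and fewer H3K27ac regions lower the share of peaks inside. The cause of the other moves was not tested. Putting the left-out intervals back moved no result beyond its interval. The 2 Mb window rho ranged from 0.52 to 0.75, the highest being without the high-background stretch. Precision is limited by 1 library per group and by a median of 5 fragments per peak. No paired analysis was possible because both ChIP groups consisted of 1 sample.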

Other observations

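The 6 longest stretches of chromosome 18 without an H3K27ac region differed in CREBBP. The longest ran 5.13 Mb, from 34409704 to 39535220, and held 181 CREBBP peaks with a median of 4 fragments, none of q at most 0.05. Those from 67957162 to 71730676, 24559735 to 28275312 and 5296938 to 8608800 held 160, 175 and 138 peaks, also with a median of 4 fragments, and 0, 1 and 0 of q at most 0.05. In these 4 the commonest background held 84.5 to 86.9% of peaks. The stretch from 63259714 to 66381556, 3.12 Mb, held 496 peaks with a median of 9 fragments, 33 of q at most 0.05 and 7.86% at the commonest background. The remaining one spanned the CREBBP-free stretch between the arms and held 79 peaks.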
